A study of Mus musculus with 21 samples.

Results

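The genes described here carry the symbols given to proteins of the mitochondrial ribosome (MRP genes), and Mrps36 among them is now assigned to another complex. They were taken as all gene symbols made of Mrpl or Mrps, a number and at most 1 letter from a to c, with a mean of at least 50 counts over 6 RNA-seq libraries. Of the 24421 genes in the deposited tables, 77 matched the symbols, and all 77 passed the mean of 50 counts and the filter on low counts that precedes the test. 48 of them carry an Mrpl symbol and 29 an Mrps symbol. The lowest mean was that of Mrps6, at 155 counts, and no matching symbol lay under the limit.

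The study asked where DNA damage arises when B cell precursors are transformed by an oncogene, and RNA-seq gave the transcript levels of the same kind of cells. Primary B cell precursors were grown from bone marrow of 53BP1-/- C57BL/6 mice in medium with IL-7, a cytokine on which early B lineage cells depend, and were transduced with a MIGR1 retroviral vector. The 3 conditions were the empty MIGR1 vector (EV, 2 libraries), the vector with human BCR-ABL1p210, the fusion tyrosine kinase of chronic myeloid leukemia and of a form of B cell acute leukemia (2 libraries), and the vector with mouse C-MYC, a transcription factor that drives cell growth (2 libraries). All cells, EV included, came from mice labelled 53BP1-/-, which lack a DNA repair protein, and were harvested, after removal of dead cells, between day 7 and day 9 after transduction. Polyadenylated RNA was sequenced from bulk cultures, so fewer cells of a type and less RNA per cell cannot be told apart.

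Mitochondria carry their own ribosome, which translates the few proteins encoded by mitochondrial DNA, all of them membrane subunits of the respiratory chain and the ATP synthase. Every protein of this ribosome is encoded in the nucleus, made in the cytosol and imported, whereas its ribosomal RNA comes from mitochondrial DNA. Some of the proteins descend from bacterial ribosomal proteins and others are found only in mitochondria, and together they form a large subunit (LSU), where peptide bonds are made, and a small subunit (SSU), where the mRNA is read.

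The libraries held 20687092 to 24095955 counts, and the 10 most abundant genes took 4.07% to 5.28% of them. Myc had 3277 to 3869 counts in the EV libraries, 7239 to 8381 with BCR-ABL1 and 27450 to 37920 with C-MYC, where reads from the vector are included. Trp53bp1, the gene of 53BP1, had 342 to 723 counts in every library, and counts per gene cannot show which part of it was deleted. Of 8 B cell precursor markers, all were detected in every condition, with summed CPM (counts scaled to one common library size) of 4730 to 5270 with EV, 4870 to 5420 with BCR-ABL1 and 2730 to 3250 with C-MYC. All 7 myeloid markers had counts in every condition, and their sum was 743 to 949 CPM with EV, 118 to 145 with BCR-ABL1 and 177 to 309 with C-MYC. The sum of 7 T and NK cell markers was 94.5 to 132 CPM with EV, 7.82 to 9.22 with BCR-ABL1 and 3.91 to 5.84 with C-MYC, and that of 5 stromal markers was 103 to 157, 4.98 to 6.02 and 1.75 to 2.56 CPM, with Cxcl12 and Pdgfrb at 0 with C-MYC. Myeloid, T and NK cell and stromal markers were thus higher with EV than with either oncogene. The sum of the B cell precursor markers was lower with C-MYC than with EV or BCR-ABL1. The part of cell types and states in the differences between conditions given below was not tested.

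The promoters of 4 MRP genes are given first, for genes to which the results below return. Mrpl12 had the highest mean FPKM of the group, Mrpl36 was among those that rose most with C-MYC and holds an E-box, the site CACGTG at which MYC and its partner MAX are known to bind, Mrps18c holds an E-box and was not called, and Mrpl52 was the gene that lay lower with C-MYC than with EV. Each sequence runs 5′ to 3′ on the strand of the gene, from 250 bases before the RefSeq transcript start to 50 bases after it, in build GRCm38.p6. Capitals mark matches on either strand to 4 motifs, which are the E-box CACGTG, the core TGCGCA of sites for nuclear respiratory factor NRF1, the core CCGGAAG of sites for ETS factors and the core AAGATGG of sites for YY1. The windows are chr11:120484387-120484686 on the plus strand for Mrpl12, chr13:73330759-73331058 on the plus strand for Mrpl36, chr5:100798509-100798808 on the plus strand for Mrps18c and chr14:54426659-54426958 on the plus strand for Mrpl52.
Mrpl12: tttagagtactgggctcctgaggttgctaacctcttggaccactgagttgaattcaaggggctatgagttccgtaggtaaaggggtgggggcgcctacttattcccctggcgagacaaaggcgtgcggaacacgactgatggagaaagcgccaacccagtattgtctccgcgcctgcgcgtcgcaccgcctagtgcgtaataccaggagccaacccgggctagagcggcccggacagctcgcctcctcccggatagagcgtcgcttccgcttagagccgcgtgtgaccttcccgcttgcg
Mrpl36: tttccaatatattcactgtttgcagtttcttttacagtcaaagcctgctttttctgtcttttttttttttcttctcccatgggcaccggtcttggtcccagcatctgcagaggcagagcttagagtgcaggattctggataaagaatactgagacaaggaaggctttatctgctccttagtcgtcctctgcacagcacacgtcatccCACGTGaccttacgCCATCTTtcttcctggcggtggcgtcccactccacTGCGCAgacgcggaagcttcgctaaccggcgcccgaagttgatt
Mrps18c: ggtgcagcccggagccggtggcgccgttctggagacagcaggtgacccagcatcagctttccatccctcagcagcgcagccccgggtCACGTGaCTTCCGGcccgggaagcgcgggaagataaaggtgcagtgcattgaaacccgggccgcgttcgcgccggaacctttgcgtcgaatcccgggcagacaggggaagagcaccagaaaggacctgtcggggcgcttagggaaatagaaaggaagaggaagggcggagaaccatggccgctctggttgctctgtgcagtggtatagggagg
Mrpl52: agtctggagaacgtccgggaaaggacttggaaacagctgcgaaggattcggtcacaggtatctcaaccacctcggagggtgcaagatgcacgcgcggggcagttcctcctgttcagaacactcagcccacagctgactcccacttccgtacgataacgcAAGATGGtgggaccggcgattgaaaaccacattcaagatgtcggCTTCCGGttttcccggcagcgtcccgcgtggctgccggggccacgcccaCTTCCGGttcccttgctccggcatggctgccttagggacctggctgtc
None of the 4 motifs was found in the Mrpl12 window. In Mrpl36 the E-box began 43 bases before the start site, a YY1 core lay at 29 bases before it and an NRF1 core at 6 bases after it. In Mrps18c the E-box began 163 bases before the start site with an ETS core at 156 bases before it, and Mrpl52 held a YY1 core at 91 bases before the start and ETS cores at 47 bases before and 2 bases after it.

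A promoter sequence was found for 68 of the 77 MRP genes. Those without one were Mrpl4, Mrpl13, Mrpl15, Mrpl19, Mrpl38, Mrpl54, Mrps28, Mrps34 and Mrps35. The E-box was in the promoters of 5 of the 68 genes (7.35%), Mrpl2, Mrpl20, Mrpl36, Mrpl37 and Mrps18c, beside 11.7% of 9714 tested genes and 8.09% of all 27025 genes with a promoter. The NRF1 core was in 20 (29.4%) beside 15.9% of tested genes, the ETS core in 25 (36.8%) beside 20.0%, and the YY1 core in 13 (19.1%) beside 8.37%. NRF1, ETS factors and YY1 are known for sites in promoters of many nuclear genes of mitochondria. Mrpl2, Mrpl48 and Mrps16 had several start sites in the table, and a motif in any of their windows was counted. The motifs were searched on both strands, where CACGTG and TGCGCA read the same, and the ETS and YY1 cores can overlap by their shared AAG.

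**Figure D1:**
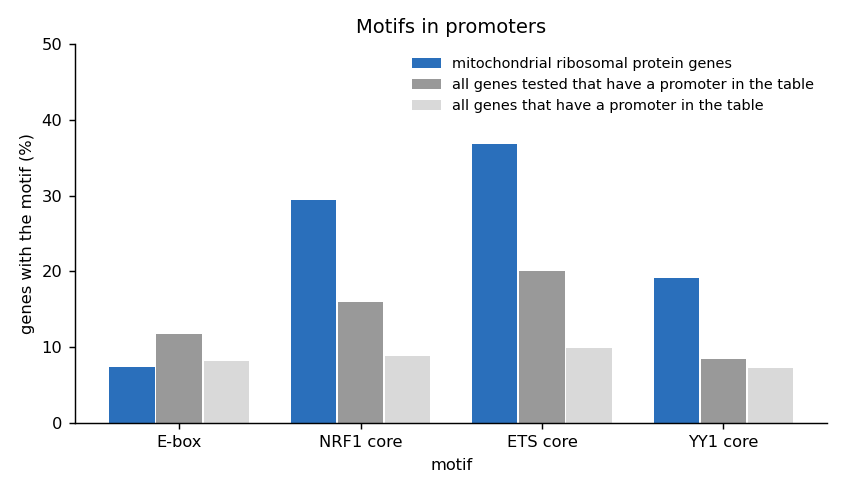
Share of genes (vertical axis, %) whose promoter window holds each of 4 motifs (horizontal axis), for the 68 MRP genes with a promoter, for the 9714 tested genes with a promoter and for all 27025 genes with a promoter. For NRF1, ETS and YY1 the bar of the MRP genes is the tallest of its group, and for the E-box it is the lowest, at 7.35%.

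The summed level of the MRP genes was lowest with EV, higher with BCR-ABL1 and highest with C-MYC. The 77 genes together had 2921 and 3059 CPM in the EV libraries, 3418 and 3522 CPM with the BCR-ABL1 libraries and 4789 and 4542 CPM with the C-MYC libraries, with each library size scaled by the TMM method of edgeR. The 3 conditions did not overlap. The mean was 2990 ± 97.6 CPM with EV, 3470 ± 73.5 with BCR-ABL1 and 4666 ± 175 with C-MYC (SD, n = 2), or 1.16 times EV with BCR-ABL1 and 1.56 times EV with C-MYC. Without any scaling, the MRP genes took 0.302% and 0.322% of all counts with EV, 0.338% and 0.352% with BCR-ABL1, and 0.452% and 0.445% with C-MYC. With 2 libraries a condition, no exact permutation test over the libraries of a pair of conditions can reach 0.05, and the sums were not tested.

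Taken gene by gene, the same order held for most of the group. In 52 of the 77 genes both BCR-ABL1 libraries lay above both EV libraries and both C-MYC libraries above both BCR-ABL1 libraries, an order without overlap that 13.3% of the 12786 genes tested showed. The median gene lay at −0.03 and 0.03 in the EV libraries, 0.20 and 0.23 with BCR-ABL1 and 0.65 and 0.55 with C-MYC, as log2 of its CPM over its own EV mean.

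**Figure D2:**
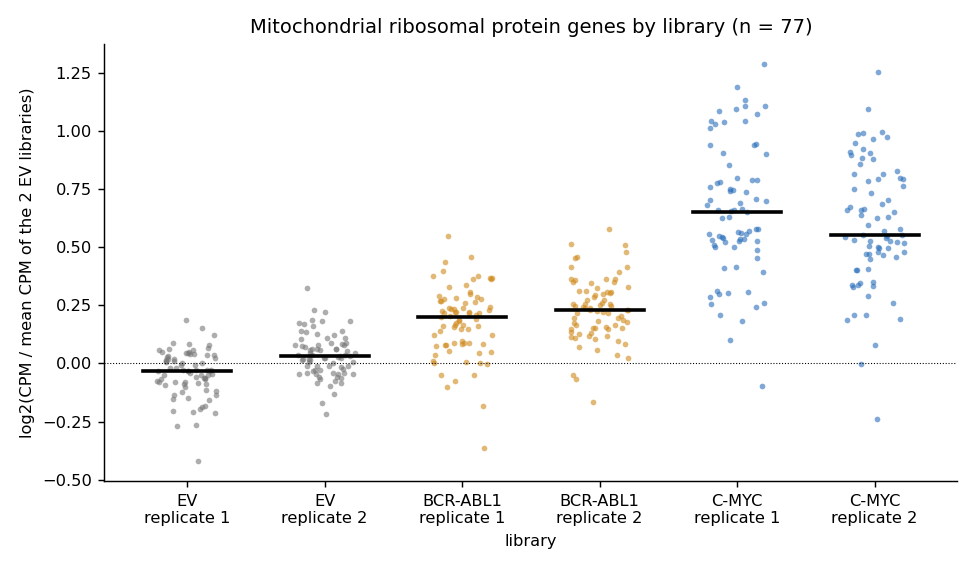
Each point is 1 of the 77 MRP genes in 1 library, plotted as log2 of its CPM over the mean CPM of the 2 EV libraries, and the black line is the median gene. The medians are −0.03 and 0.03 with EV, 0.20 and 0.23 with BCR-ABL1 and 0.65 and 0.55 with C-MYC. With C-MYC the points are more spread out than with BCR-ABL1. The EV points are tied to 0, because each gene is divided by its own EV mean.

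With C-MYC, 62 of the 77 MRP genes were higher than with EV and none was lower at an adjusted p below 0.05 (edgeR quasi-likelihood test, Benjamini-Hochberg over the 12786 genes tested). Among all genes tested, 18.6% were called higher and 24.5% lower in this comparison. At an unadjusted p below 0.05 the count was 69 higher and 0 lower with edgeR, 71 and 0 with DESeq2, and 60 and 1 with limma on FPKM. The share of all genes at this unadjusted threshold was not counted. Neither DESeq2 nor limma called any MRP gene lower after adjustment. The median log2 fold change of the MRP genes was 0.58, a 1.5-fold rise, with quartiles at 0.49 and 0.81, while the median over all genes tested was −0.08 and over the 10623 tested genes above the limit of 50 mean counts −0.02. 76 of the 77 genes had a log2 fold change above 0, beside 45.3% of all genes tested, and in 75 of them both C-MYC libraries lay above both EV libraries, beside 31.5% of all genes tested. When the counts were scaled to library totals alone, the median of all genes moved from −0.08 to −0.19, the median of the MRP genes moved with it to 0.47, 52 MRP genes were called higher, and the calls over all genes turned from 2383 higher and 3132 lower to 1795 higher and 3782 lower. When a C-MYC library was left out, fewer MRP genes and a smaller share of all genes tested were called higher. Which MRP genes were called higher depended on the fit. How many of all genes tested were called higher in every one of the 14 fits was not counted.

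Mrpl12, a protein of the stalk of the large subunit that is also known to bind the mitochondrial RNA polymerase, combined the highest mean FPKM with one of the largest changes. It had 84.3 and 99 CPM with EV, 118 and 128 with BCR-ABL1 and 224 and 196 with C-MYC. No 2 conditions overlapped. Its log2 fold change between C-MYC and EV was 1.20 (SE 0.13), or 2.29-fold, with an adjusted p of 0.000507 by edgeR. The gene lies on chr11:120484613-120489065, plus strand, of GRCm38 and overlaps no other protein-coding gene.

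Mrps6, a small subunit protein with a bacterial homolog, had the largest fold change and the smallest counts. It was read 75 and 141 times with EV, 77 and 155 times with BCR-ABL1 and 233 and 250 times with C-MYC, which are 3.51, 5.89, 3.65, 6.44, 10.7 and 11.2 CPM in that order. The EV and BCR-ABL1 libraries overlapped, and both C-MYC libraries lay above them. Between C-MYC and EV its log2 fold change was 1.22 with an SE of 0.34, the widest of the genes named here, and an adjusted p of 0.0223 by edgeR. The call was lost without EV replicate 1 (adjusted p = 0.0552), without C-MYC replicate 1 (0.0838) and without C-MYC replicate 2 (0.0935), in a range from 0.00311 to 0.0935 over all alternatives. Mrps6 on chr16:92058270-92112227 also overlaps Slc5a3, a transporter gene, and no source used here names the strand or the rule by which reads in such overlaps were counted.

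The next genes by size of change rose by about 1 on the log2 scale. Mrps27 (chr13:99344786-99415562), a small subunit protein found only in mitochondria, had 18.3 and 24.1 CPM with EV, 25 and 26.3 with BCR-ABL1 and 45.7 and 42.1 with C-MYC, and rose by 1.05 (SE 0.16, adjusted p = 0.00206 by edgeR) between EV and C-MYC. Mrps22 (chr9:98588730-98601660), likewise specific to mitochondria, had 25.1 and 26 CPM with EV, 32.9 and 30.0 with BCR-ABL1 and 54.4 and 50.7 with C-MYC, a log2 fold change of 1.04 (SE 0.13). In both genes the C-MYC libraries stood clear of the other 4. Mrpl47 (chr3:32725397-32737605), the mitochondrial counterpart of bacterial L29 at the exit of the peptide tunnel, went from 17.9 and 19.9 CPM with EV through 22.2 and 22.3 with BCR-ABL1 to 40.4 and 37.1 with C-MYC, a log2 fold change of 1.04 (SE 0.14). Mrpl36 (chr13:73328513-73332178), a very small protein of the large subunit, had 35.6 and 34.5 CPM with EV, 39.8 and 41.5 with BCR-ABL1 and 73.8 and 69.9 with C-MYC, a log2 fold change of 1.04 (SE 0.12, adjusted p = 0.000612 by edgeR). Its promoter is the one printed above with an E-box close to the start. Mrpl47 overlaps Actl6a and Ndufb5, and Mrpl36 overlaps Ndufs6, so part of their counts may be shared.

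Transcripts called higher with C-MYC were found for both subunits and for both origins, beside 18.6% of all genes tested. Of the 29 LSU proteins with a bacterial homolog, 25 were called higher with C-MYC than with EV, with log2 fold changes that had a median of 0.70 and ran from 0.22 for Mrpl33 to 1.20 for Mrpl12. Of the 19 LSU proteins found only in mitochondria, 14 were called higher, with a median of 0.55 and a range from −0.17 for Mrpl52 to 0.97 for Mrpl42. Of the 16 SSU proteins with a bacterial homolog, 12 were called higher, with a median of 0.53 from 0.15 for Mrps18c to 1.22 for Mrps6. Of the 9 SSU proteins found only in mitochondria, 7 were called higher, with a median of 0.78 from 0.25 for Mrps23 to 1.05 for Mrps27. The interquartile ranges of the 4 classes overlap, and no class was tested against another. Summed over the classes of a subunit, the 48 LSU genes were 1.58 times EV and the 25 SSU genes 1.51 times EV with C-MYC. Mrps18a, Mrps18b, Mrpl55 and Mrps36 were kept apart from the classes and are in neither sum. Without C-MYC replicate 1, fewer genes were called in the LSU class specific to mitochondria and in the SSU class with bacterial homologs. A smaller share of all genes tested was called higher in that fit as well.

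**Figure D3:**
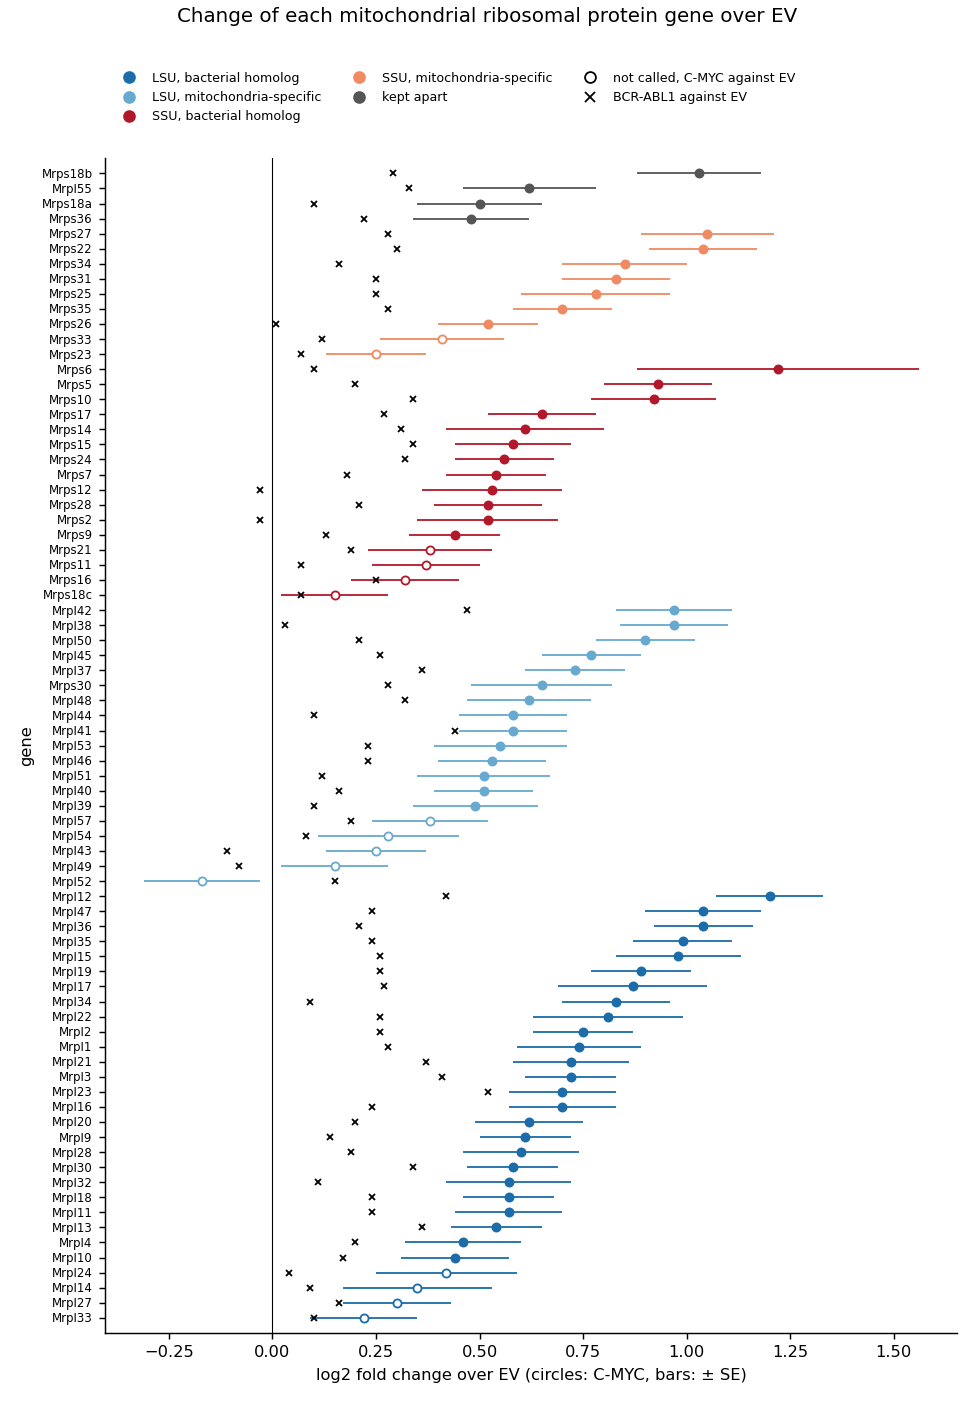
Log2 fold change over EV of each MRP gene, with circles and bars (± SE) for C-MYC, filled where the gene was called (adjusted p below 0.05, edgeR), and crosses for BCR-ABL1. Colours give the class in the large (LSU) or small (SSU) subunit, and kept apart marks 4 genes outside the classes. Every circle but that of Mrpl52 lies above 0, and 62 are filled.

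Mrps30, which carries a small subunit name but sits in the large subunit and is counted there, had 71.8 and 54.3 CPM with EV, 75.9 and 77.7 with BCR-ABL1 and 109 and 88.1 with C-MYC. Its log2 fold change between C-MYC and EV was 0.65 (SE 0.17, adjusted p = 0.0163 by edgeR). Mrpl55 and Mrps36 were kept apart from the classes, Mrps36 because it is now known as a subunit of the oxoglutarate dehydrogenase complex rather than of the ribosome. Mrpl55 rose by 0.62 (SE 0.16, adjusted p = 0.0155 by edgeR) and Mrps36 by 0.48 (SE 0.14, adjusted p = 0.0264 by edgeR) between EV and C-MYC. The call of Mrps36 was lost in 6 of 13 alternatives, where its adjusted p ran from 0.00764 to 0.142.

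The 3 paralogs of bacterial S18 took log2 fold changes from 0.15 to 1.03 between C-MYC and EV. Mrps18c is the small subunit protein in the place of bacterial S18, Mrps18b lies elsewhere in the small subunit, and Mrps18a belongs to the large subunit. Mrps18b (chr17:35910379-35916389) had 21.0 and 23.1 CPM with EV, 25.8 and 28.2 with BCR-ABL1 and 48.5 and 41.4 with C-MYC, a log2 fold change between C-MYC and EV of 1.03 (SE 0.15, adjusted p = 0.00142 by edgeR). Mrps18a (chr17:46110986-46128910) had 32.7 and 42.8 CPM with EV, 40.1 and 40.8 with BCR-ABL1 and 53.3 in each C-MYC library, a log2 fold change of 0.50 (SE 0.15, adjusted p = 0.0312 by edgeR) whose call was lost in 6 of 13 alternatives. Mrps18c (chr5:100798627-100804471) had 33.5 and 34.8 CPM with EV, 37.2 and 34.8 with BCR-ABL1 and 36.7 and 39.1 with C-MYC, a log2 fold change of 0.15 (SE 0.13, adjusted p = 0.371 by edgeR). For Mrps18c the C-MYC libraries lay above the EV libraries but overlapped BCR-ABL1. The difference in change between the paralogs was not tested.

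Mrpl52 (chr14:54426909-54429756), a large subunit protein specific to mitochondria, was the only MRP gene with a negative log2 fold change between C-MYC and EV. It had 26.6 and 23.4 CPM with EV, 27.7 and 27.8 with BCR-ABL1 and 23.4 and 21.2 with C-MYC. The C-MYC libraries lay below the BCR-ABL1 libraries and no higher than the lower EV library, and the log2 fold change was −0.17 against EV (SE 0.14, adjusted p = 0.379 by edgeR) and −0.32 against BCR-ABL1 (SE 0.14, adjusted p = 0.147 by edgeR). It was called in neither direction in any of 13 alternatives of the comparison with EV.

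15 MRP genes were not called between C-MYC and EV, and the 10 of them with the smallest mean counts were Mrpl14, Mrps33, Mrpl52, Mrps11, Mrpl27, Mrpl24, Mrps16, Mrpl33, Mrps18c and Mrpl57. Besides Mrpl52 their log2 fold changes ran from 0.15 for Mrps18c to 0.42 for Mrpl24. Mrpl33, a small protein of the large subunit, had 28.4 and 27.4 CPM with EV and 33.0 and 32.2 with C-MYC, without overlap, and a log2 fold change of 0.22 (SE 0.13, adjusted p = 0.192 by edgeR). Mrpl14 had 16.3 and 18.2 CPM with EV and 19.5 and 24.4 with C-MYC, a log2 fold change of 0.35 with an SE of 0.18 (adjusted p = 0.153 by edgeR). A miss of the threshold at this depth and with 2 libraries a condition does not show that these levels were equal. Mrpl14, Mrpl27, Mrpl33, Mrps18c and Mrpl52 passed the threshold in no alternative, whereas Mrpl57 passed it in 4 of 13, and Mrps33, Mrps11, Mrpl24 and Mrps16 in 3 of 13 each. Mrpl43, not called either and named after its values were seen, had 61.7 and 58.2 CPM with EV and 73.9 and 68.3 with C-MYC and overlaps Twnk, the gene of the mitochondrial DNA helicase that is listed as Peo1.

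**Figure D4:**
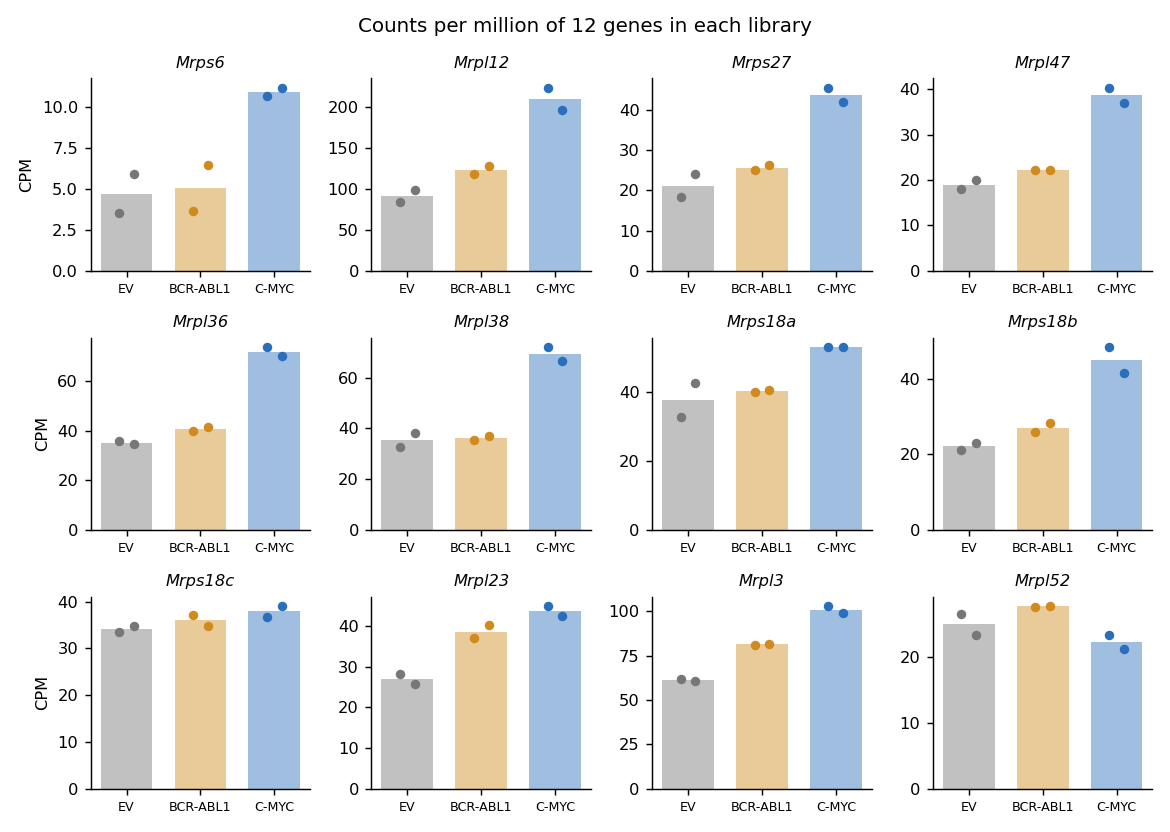
CPM (vertical axis, from 0) of 12 MRP genes in the 2 libraries of each condition, with points for libraries and bars for their mean. The C-MYC points lie above all others in 10 panels, those of Mrps18c overlap BCR-ABL1, and those of Mrpl52 lie below BCR-ABL1.

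With BCR-ABL1, 2 of the 77 MRP genes were called higher than with EV and none lower (edgeR, Benjamini-Hochberg), beside 5.08% of all genes tested called higher and 12.0% called lower. In this test the share of called MRP genes lay below that background. DESeq2 called 8 of 77 higher beside 7.39% of all genes, and limma on FPKM 2 of 77 beside 2.66%. With DESeq2 size factors edgeR called 4 of 77 beside 5.78%, and with library totals alone 0 of 77 beside 3.1%. At an unadjusted p below 0.05, 12 were higher and 0 lower with edgeR, 17 and 0 with DESeq2 and 10 and 0 with limma on FPKM. All genes were not counted at that unadjusted threshold, so the shares above are no background for these counts. The fold changes were nevertheless mostly above 0, in 73 of the 77 genes beside 50.2% of all genes tested, with a median of 0.22, a 1.16-fold difference, while the median of all genes was 0.00. In 55 genes both BCR-ABL1 libraries lay above both EV libraries, beside 29.2% of all genes tested. The median stayed above 0, between 0.15 and 0.25, in every alternative, but the count of called genes ran from 0 to 9. Both that count and the share of all genes called higher were lower when a BCR-ABL1 or C-MYC library was left out. When counts were scaled to library totals alone, no MRP gene was called, and the calls over all genes went from 650 higher and 1530 lower to 396 higher and 1647 lower.

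The called genes were Mrpl23 and Mrpl3, both large subunit proteins with bacterial homologs. Mrpl23 (chr7:142532686-142540747) had 28.1 and 25.7 CPM with EV, 36.9 and 40.2 with BCR-ABL1 and 44.9 and 42.5 with C-MYC, and a log2 fold change between BCR-ABL1 and EV of 0.52 (SE 0.13, adjusted p = 0.0317 by edgeR). Mrpl3 (chr9:105053239-105079888) had 61.7 and 60.9 CPM with EV, 80.8 and 81.8 with BCR-ABL1 and 103 and 98.7 with C-MYC, and a log2 fold change of 0.41 (SE 0.11, adjusted p = 0.0363 by edgeR). The 3 conditions were apart in both genes. The adjusted p ran from 0.00639 to 0.274 for Mrpl23 and from 0.00654 to 0.259 for Mrpl3 over the alternatives, and the calls held in 6 and 7 of 13. Mrpl12 had a log2 fold change of 0.42 (SE 0.13) that missed the threshold, with an adjusted p of 0.0584 by edgeR. By class, the median log2 fold change with BCR-ABL1 was 0.24 for LSU genes with bacterial homologs, 0.19 for LSU genes specific to mitochondria, 0.19 for SSU genes with bacterial homologs and 0.25 for SSU genes specific to mitochondria. The lowest value was −0.11, for Mrpl43.

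The direct comparison of the oncogenes bears on whether the change differed between them, since the 2 comparisons with EV share their control libraries. 29 of the 77 MRP genes were higher with C-MYC than with BCR-ABL1 and none lower (edgeR, Benjamini-Hochberg), beside 11.5% of all genes tested called higher and 11.9% called lower. At an unadjusted p below 0.05, 48 were higher and 0 lower with edgeR, 51 and 0 with DESeq2 and 46 and 1 with limma, and after adjustment DESeq2 called 42 higher and limma 22. The median was 0.38, a 1.3-fold difference, beside 0.00 for all genes tested. In 71 genes both C-MYC libraries lay above both BCR-ABL1 libraries, beside 34.5% of all genes tested. The count of calls moved widely with the libraries, and the share of all genes tested called higher moved with it. Both were lower when a BCR-ABL1 or C-MYC library was left out and higher when an EV library was left out. The median of the MRP genes stayed between 0.33 and 0.43.

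The largest changes between the oncogenes were in Mrps6, Mrpl38, Mrpl36, Mrpl47, Mrpl12 and Mrps27. Mrpl38 (chr11:116131817-116138868), a large subunit protein specific to mitochondria, had 32.6 and 38.2 CPM with EV, 35.3 and 36.9 with BCR-ABL1 and 72.3 and 66.5 with C-MYC. Its BCR-ABL1 libraries lay between the EV libraries and its C-MYC libraries far above both, with log2 fold changes of 0.94 (SE 0.13, adjusted p = 0.00366 by edgeR) against BCR-ABL1, 0.97 (SE 0.13) against EV, and 0.03 (SE 0.13, adjusted p = 0.914 by edgeR) between BCR-ABL1 and EV. Mrpl36 rose by 0.82 (SE 0.12), Mrpl47 by 0.80 (SE 0.14), and Mrpl12 and Mrps27 by 0.77 each (SE 0.13 and 0.16) between BCR-ABL1 and C-MYC. Mrps6 had a log2 fold change of 1.11 (SE 0.34, adjusted p = 0.0491 by edgeR) that was lost in 6 of 13 alternatives, where the adjusted p reached 0.301. By class, 12 of 29 LSU genes with bacterial homologs were called higher with C-MYC than with BCR-ABL1 (median 0.42), 5 of 19 LSU genes specific to mitochondria (0.36), 5 of 16 SSU genes with bacterial homologs (0.31) and 6 of 9 SSU genes specific to mitochondria (0.53). Of all genes tested, 11.5% were called higher in this comparison.

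Levels between genes were compared per length, in the deposited FPKM. The mean FPKM over the 6 libraries ran from 7.11 for Mrps6 to 223 for Mrpl12 with a median of 34.6. After Mrpl12 came Mrpl30 at 135 and Mrpl50 at 111 FPKM, and the lowest after Mrps6 were Mrpl33 at 7.33 and Mrpl17 at 8.37. By condition, Mrpl12 had 154 ± 20.7 FPKM with EV, 196 ± 13.7 with BCR-ABL1 and 320 ± 22.7 with C-MYC, and Mrps6 had 4.84 ± 1.48, 5.52 ± 1.83 and 11 ± 1.12 (SD, n = 2). The order of the genes depended on the measure of length. Counts per kilobase of the main annotated transcript put Mrpl42 first at 2800, Mrpl12 next at 2400 and Mrps6 near the bottom at 183, but gave Mrpl33 1410, and the rank correlation of both measures over the 77 genes was 0.29, a description over genes that share libraries and annotation. The order in FPKM is therefore a description of that measure alone.

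The cytosolic ribosome, which makes the MRP proteins, gave the nearest comparison. For 75 genes of its proteins above the same limit of 50 counts, the sum was 6.39% and 6.25% of all counts with EV, 7.30% and 7.41% with BCR-ABL1 and 8.39% and 8.21% with C-MYC. With C-MYC 67 of the 75 were higher than with EV and 1 lower (edgeR), at a median log2 fold change of 0.52. With BCR-ABL1 20 were higher and 1 lower, with a median of 0.29. Of all genes tested, 18.6% were called higher and 24.5% lower with C-MYC, and 5.08% higher and 12.0% lower with BCR-ABL1. The cytosolic gene called lower in each case was Rpl3l, a form of Rpl3 known from muscle. The MRP genes had a lower median than the cytosolic genes with BCR-ABL1 (0.22 and 0.29) and a higher one with C-MYC (0.58 and 0.52). Between the oncogenes 10 of the 75 cytosolic genes were called higher with C-MYC, beside 11.5% of all genes tested. The cytosolic median there was 0.23, beside 0.38 for the MRP genes. Counts of the MRP genes were 4.73% and 5.16% of those of the cytosolic genes with EV, 4.64% and 4.74% with BCR-ABL1 and 5.39% and 5.42% with C-MYC. C-MYC lay above the other 4 libraries in this ratio while EV and BCR-ABL1 overlapped, and the difference between the families was not tested.

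The other genes of mitochondrial translation were read in 4 lists, to be set beside the 18.6% of all genes called higher and 24.5% called lower with C-MYC. Of 6 proteins of the mitochondrial ribosome that carry other symbols, 4 were higher with C-MYC than with EV and none lower (edgeR), with a median of 0.72. Ptcd3, an RNA-binding small subunit protein, rose from 43.1 and 55.3 CPM to 114 and 120 CPM, a log2 fold change of 1.25 (SE 0.15), Gadd45gip1, a large subunit protein, by 0.94 (SE 0.16) and Dap3, a GTP-binding small subunit protein, by 0.77 (SE 0.11). Of 15 translation factors and regulators of mitochondrial mRNA, 10 were higher and none lower, with a median of 0.82. Among them Lrpprc, which stabilises mitochondrial mRNAs, rose by 1.17 (SE 0.17), Tsfm by 1.12 (SE 0.15) and Tufm by 0.98 (SE 0.15), the last a pair that brings aminoacyl-tRNA to the ribosome. Of 24 factors of ribosome assembly, 7 were higher and 1 lower, with a median of 0.35. Noa1, a GTPase needed for the small subunit, rose by 1.3 (SE 0.17), Fastkd2, which binds the ribosomal RNA, by 1.21 (SE 0.14) and Rnmtl1, a ribosomal RNA methyltransferase, by 1.19 (SE 0.25), while Mterf4, a partner of an RNA methyltransferase, fell by 0.65 (SE 0.15). Of 11 genes of mitochondrial DNA transcription and replication, 7 were higher and none lower, with a median of 0.55. The largest changes among the called genes were in the mitochondrial topoisomerase Top1mt at 1.5 (SE 0.27) and the helicase Peo1 at 0.86 (SE 0.13). The elongation factor Tefm followed at 0.83 (SE 0.18), and Polg2, which was not called, had 0.88 (SE 0.36). With edgeR, DESeq2 and limma alike, no gene of the lists other than assembly was lower at an unadjusted p below 0.05. Fewer assembly factors were called higher when either C-MYC library was left out, and none was called lower. Fewer genes of mitochondrial DNA were called higher when any BCR-ABL1 or C-MYC library was left out. A smaller share of all genes tested was called higher in those fits as well.

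With BCR-ABL1 the background was 5.08% of all genes called higher and 12.0% called lower. None of the 6 ribosomal proteins under other symbols and none of the 15 translation factors was called in edgeR, 1 of the 24 assembly factors was lower, Mterf4 with a log2 fold change of −0.58 (SE 0.15) and no call with limma, and 1 of the 11 genes of mitochondrial DNA was higher, Tefm with 0.80 (SE 0.18). Tefm had 10.3 and 10.9 CPM with EV, 17.3 and 19.6 with BCR-ABL1 and 16.8 and 20.7 with C-MYC, so both oncogene conditions lay above EV and overlapped each other. At an unadjusted p below 0.05, edgeR found 3 of the 6 ribosomal proteins under other symbols, 2 of the 15 translation factors, 2 of the 24 assembly factors and 2 of the 11 genes of mitochondrial DNA higher. For this threshold the share of all genes was not counted. After adjustment DESeq2 and limma each called 1 of those 6 ribosomal proteins higher and none of the translation factors. Of all genes tested, DESeq2 called 7.39% higher and limma 2.66%.

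**Figure D5:**
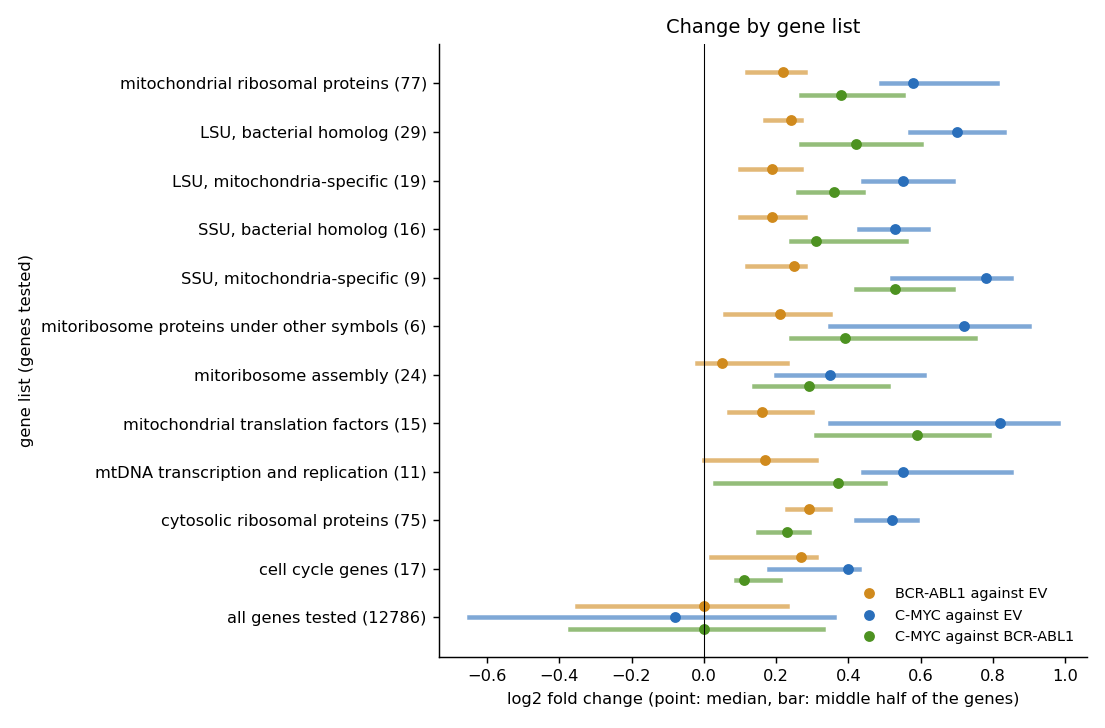
Median log2 fold change (points) and interquartile range (bars) for the MRP genes, their classes, 4 lists of mitochondrial translation, cytosolic ribosomal proteins, cell cycle genes and all genes tested, in 3 comparisons. The number of genes tested is given beside each name, and for the MRP genes the points lie at 0.22, 0.58 and 0.38.

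A list of 17 cell cycle genes had the same order of summed levels. Their sum was 7240 to 7610 CPM with EV, 8030 to 8260 with BCR-ABL1 and 8510 to 8750 with C-MYC. Between C-MYC and EV, 9 were called higher in edgeR, beside 18.6% of all genes tested, and the median log2 fold change was 0.40. 15 of the 17 had a log2 fold change above 0 there, but Mki67 lay at −0.23 and Top2a at −0.05. Between C-MYC and BCR-ABL1 none was called in either direction, and the median was 0.11. The part of cell cycle state in the levels of the MRP genes was not tested.

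The promoters were also set beside the change with C-MYC. The 5 MRP genes with an E-box had a median log2 fold change between C-MYC and EV of 0.73, with 4 called, and the 63 without one 0.58, with 50 called. Of all genes tested, 18.6% were called higher. For the other motifs the medians with and without were 0.58 and 0.59 for the NRF1 core, 0.52 and 0.61 for the ETS core and 0.56 and 0.60 for the YY1 core. A match is a description of these letters in this window and not a site, and with 5 genes no difference was tested.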

How the data were processed

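Reads of poly-A RNA libraries were aligned by the authors to GRCm38/mm10 with STAR 2.5.0. The authors deposited raw read counts per gene, and FPKM values computed with StringTie 1.3.0. How reads were counted per gene, and whether strand was used, is not given in the sources used here. Counts of 6 libraries (3 conditions, 2 each, grouped by their labels) were tested with the quasi-likelihood test of edgeR 4.0.16 in R 4.3.3, with TMM scaling, the filterByExpr filter (12786 of 24421 genes kept), 1 model for all 6 libraries and Benjamini-Hochberg adjustment over all genes tested. A gene was called at an adjusted p below 0.05. The SE of a log2 fold change was its size over the square root of F. The common biological coefficient of variation was 0.151. Replicates were RNA from duplicate experiments per the study's methods, and p-values measure the spread between these libraries. Counts of the 2 libraries of a condition differed by more than sampling noise (chi-square over its degrees of freedom 10.1 to 42.9).

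Alternatives were DESeq2 size factors, library totals alone, no filter (17273 genes with at least 1 count), DESeq2 1.42.0, only the 4 libraries compared, a replicate block, leaving out each library, the rule without its mean of 50 counts, and limma 3.58.1 on log2(FPKM + 1). The scripts were tested on simulated data. The genes, their lists and the tests were chosen with earlier results of these data known. Genes named are the called MRP genes with the 6 largest changes in each comparison and direction, those with the 3 highest and 3 lowest mean FPKM, the gene nearest to the limit of 50 counts, up to 10 not called with C-MYC by smallest mean count, 7 fixed for their role, and 3 per other list; Mrpl43 and the ends of ranges were named besides. Positions and transcript lengths came from GENCODE M21 (GRCm38), and promoters from RefSeq (GRCm38.p6), matched by symbol. Levels are relative to each library, so a change in total RNA per cell is not measured. The ChIP-seq samples of the series were not used here. One further marker list is not reported here.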

Additional observations from a re-analysis of the deposited data

How the results depend on the processing

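The direction of the median of the MRP genes held in every alternative and comparison, and no alternative called any MRP gene lower in any comparison. The number of MRP genes higher in BCR-ABL1 than in EV was 4 with DESeq2 size factors, 0 with library totals alone, 4 without the filter, 8 with the DESeq2 test, 0 with only the 4 libraries compared, 8 with the replicate block, and 0 to 9 when each library was left out. Higher in C-MYC than in EV were 68 with the replicate block and 37 to 60 when each library was left out. Higher in C-MYC than in BCR-ABL1 were 48 with only the 4 libraries compared, 46 with the replicate block and 0 to 47 when each library was left out. Of all genes tested, those called higher in BCR-ABL1 than in EV were 5.78% with DESeq2 size factors and 3.1% with library totals alone. They were 4.56% without the filter, 7.39% with the DESeq2 test, 3.19% with only the 4 libraries compared and 9.55% with the replicate block. Against EV, C-MYC had 22.8% with the replicate block. Against BCR-ABL1, C-MYC had 18.7% with only the 4 libraries compared and 16.5% with the replicate block. The share also moved when a library was left out. The fits without a library have fewer residual degrees of freedom, and a condition left with 1 library is assumed to vary like the others. The replicate numbers are shared by the labels without a stated batch; the deviations of same-numbered libraries correlated at 0.204 to 0.273 over 12786 genes, and the samples were not taken as paired.

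Median log2 fold changes moved beyond the spread between libraries with library totals alone (0.15 for BCR-ABL1 and 0.47 for C-MYC, both against EV) and with limma on FPKM (0.15 and 0.46 against EV, 0.33 for C-MYC against BCR-ABL1), and ran over 0.18 to 0.25, 0.55 to 0.65 and 0.35 to 0.43 when each library was left out. Between C-MYC and EV, with each library left out, 5 to 14 LSU genes specific to mitochondria, 5 to 10 SSU genes with bacterial homologs, 4 to 10 assembly factors (0 to 1 lower) and 2 to 7 genes of mitochondrial DNA were called higher, the last also 4 with library totals alone and 4 with limma on FPKM. Of 546 values of named genes under an alternative, 468 kept their direction and side of the threshold, 48 lost the call, 28 gained it and 2 changed sign, both of BCR-ABL1 against EV: Mrps18a at −0.08 without EV replicate 1 (−0.08 to 0.31 when each library was left out) and Mrps18c at −0.01 with limma on FPKM. The cause was not tested. With 2 libraries a condition and 3 residual degrees of freedom, small changes could not be told from the spread between libraries.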

Other observations

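The 77 MRP genes lay on 17 chromosomes, with at most 10 on one, chromosome 11, and their genes spanned 0.79 to 121.77 kb with a median of 7.89 kb. 18 of them (23.4%) started head to head with another protein-coding gene, within 1000 bases and on the opposite strand, beside 10.5% of 11801 protein-coding genes tested. Pairs whose starts overlap, such as Mrpl46 and Mrps11, were not counted in either share. Of 17 neighbours tested, 3 were higher with C-MYC than with EV (17.6%, beside 18.6% of all genes tested), Ptcd2, Hira and Psma2, and 2 were lower, Eme2 and Klc4, with a median log2 fold change of 0.11 (edgeR). The difference from the MRP genes was not tested. These neighbours were named after their values were seen. Klc4, a kinesin light chain that starts 207 bases from Mrpl2, had a log2 fold change of −0.82 while Mrpl2 had 0.75.

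26 MRP genes (33.8%) overlap another protein-coding gene, and reads in the overlap may be counted for either. Among the 51 without an overlap, 43 were called higher with C-MYC than with EV, beside 18.6% of all genes tested. Their median log2 fold change was 0.62.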
